A study of Mus musculus with 6 samples.

Results

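The genes described here are the enzymes and transporters that carry glucose to pyruvate and lactate. With them are subunits of the enzyme that turns pyruvate into acetyl-CoA in mitochondria, and the kinases that switch that enzyme off. They were chosen by name, as the rows of the deposited count table whose gene symbol was on a list of 34, out of 57186 genes in the table. The list followed the pathway from the plasma membrane to lactate and kept sister genes that encode the same activity. The symbols matched 35 gene identifiers, because Aldoa was listed under a pair of them.

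The libraries came from tumours of MB49, a carcinoma line from the bladder of a male C57BL/6 mouse. In one group the cells carried the genotype CRISPR Y-KO, in which the Y chromosome was targeted, and in the other CRISPR Y-Scr, the scramble control. Both kinds of cell were grown under the skin of C57Bl/6J mice until the tumours measured 500 mm3, and cells negative for CD45, the common leukocyte antigen, were then sorted for poly-A RNA sequencing. Each group had 3 libraries, all with the same batch label. The labels do not say whether Y-KO is 1 clone, how old the mice were, or whether replicates came from separate animals, so p-values speak only of the spread among these libraries, and that spread could be technical. The comparison asks how the transcripts of the glucose-to-lactate route differed between tumours of the 2 genotypes.

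In glycolysis, glucose enters through facilitative transporters, is phosphorylated by hexokinase, committed by phosphofructokinase and split by aldolase, and the products are then oxidised and dephosphorylated to pyruvate with a net gain of ATP. Lactate dehydrogenase reduces pyruvate to lactate and restores NAD+, and monocarboxylate transporters move lactate across the membrane with a proton. Many tumours run this route at a high rate even where oxygen is present, and several of its genes are known targets of the hypoxia-inducible factors and of Myc. For most steps the genome holds several genes with overlapping activity and different tissue preference, called isozymes or isoforms here. Counts per gene cannot separate splice forms of 1 gene, such as the M1 and M2 forms of Pkm.

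Total counts per library ran from 42040955 to 52951031. Levels are given as CPM, the usual counts scaled to a common library size. As a check of the genotype labels, the summed level of the Y-linked genes Kdm5d, Uty, Ddx3y and Eif2s3y was 20.4 to 47.2 CPM in Y-KO and 296 to 344 CPM in Y-Scr. Leukocyte transcripts remained after the CD45 sort: Ptprc, which encodes CD45, was at 134 to 298 CPM in Y-KO and 521 to 601 CPM in Y-Scr. Y-KO replicate 3 stood apart. The mean chi-square per gene between the counts of 2 libraries was 98.7 and 99.4 for its pairs with Y-KO replicates 2 and 1, against 11.6 between replicates 1 and 2 themselves and 6.83 to 24.4 among the Y-Scr pairs. In sorted bulk samples, fewer cells of a type and less RNA per cell cannot be told apart, which holds for every level below.

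At least 1 gene of most steps from glucose entry to lactate was higher in Y-KO tumours, by log2 0.28 to 0.57. The aldolase step and the lactate transporters had no higher gene, and 17 tested genes were not called, among them the abundant Aldoa and Pfkp and both lactate transporters. Of the 34 genes, 33 passed the filter on low counts and were tested with edgeR's quasi-likelihood test, and a gene was called at a Benjamini-Hochberg adjusted p below 0.05 over all 17837 genes tested. Among them 14 were higher in Y-KO, 2 were lower and 17 were not called. That is 48.5% of the tested members, where 16.1% of all genes were called, 7.82% higher and 8.27% lower. The higher genes were Slc2a1, Hk1, Hk2, Gpi1, Pfkl, Tpi1, Gapdh, Pgk1, Pgam1, Eno1, Eno3, Pkm, Ldha and Pdhb, with log2 fold changes from 0.28 to 0.57 and a median of 0.42. The lower genes were Slc2a3 and Aldoc. The median log2 fold change over the 33 tested members was 0.27, beside -0.03 over all genes. Of the 17 without a call, 2 had an unadjusted p below 0.05.

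Counted without a model, 17 members were at higher CPM in each Y-KO library than in any Y-Scr library and 2 were at lower CPM in each, against 17.5% and 20.3% of all genes (37.7% in either direction). As a share of all counts, the members together took 2.10%, 2.15% and 2.09% in the Y-KO libraries and 1.85%, 1.73% and 1.72% in the Y-Scr libraries. The groups did not overlap in this share. Many members are abundant transcripts, and abundant genes were called more often than others. Of 2092 genes at or above a mean of 100 CPM, a background chosen after the levels were seen, 28.8% were called: 22.2% were higher and 6.60% lower, with a median log2 fold change of 0.12. Of the 18 members above that level, 13 were higher and 0 were lower in edgeR's test.

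The calls differed in how far they rested on single libraries and on the scaling. Slc2a3, Gpi1, Aldoc, Gapdh, Pgk1, Pkm and Ldha stayed called when each library was left out in turn; the other 9 lost the call without at least 1 library, named at each gene below. Scaling by library size alone, without the TMM factors, moved the all-gene median from -0.03 to -0.17 and gave 7 members higher and 3 lower. Slc2a1, Hk1, Hk2, Pfkl, Pgam1, Eno1 and Pdhb lost their call there and Pfkm gained one as lower, while calls over all genes went from 1395 higher and 1476 lower to 730 higher and 2255 lower (4.09% and 12.6%, 16.7% in all). When the close pairs, Y-KO replicates 1 and 2 and Y-Scr replicates 2 and 3, were each summed into 1 sample, only Slc2a3 remained called among the members, with an edgeR log2 fold change of -1.69 and an adjusted p of 0.0419; 2.55% of all genes were called in that fit, 0.7% higher and 1.85% lower. With single libraries left out, 11, 10 and 24 members were called without Y-KO replicates 1, 2 and 3, where 9.22%, 9.52% and 33.7% of all genes were, and 14, 7 and 7 without Y-Scr replicates 1, 2 and 3, where 9.26%, 5.55% and 5.57% were.

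**Figure D1:**
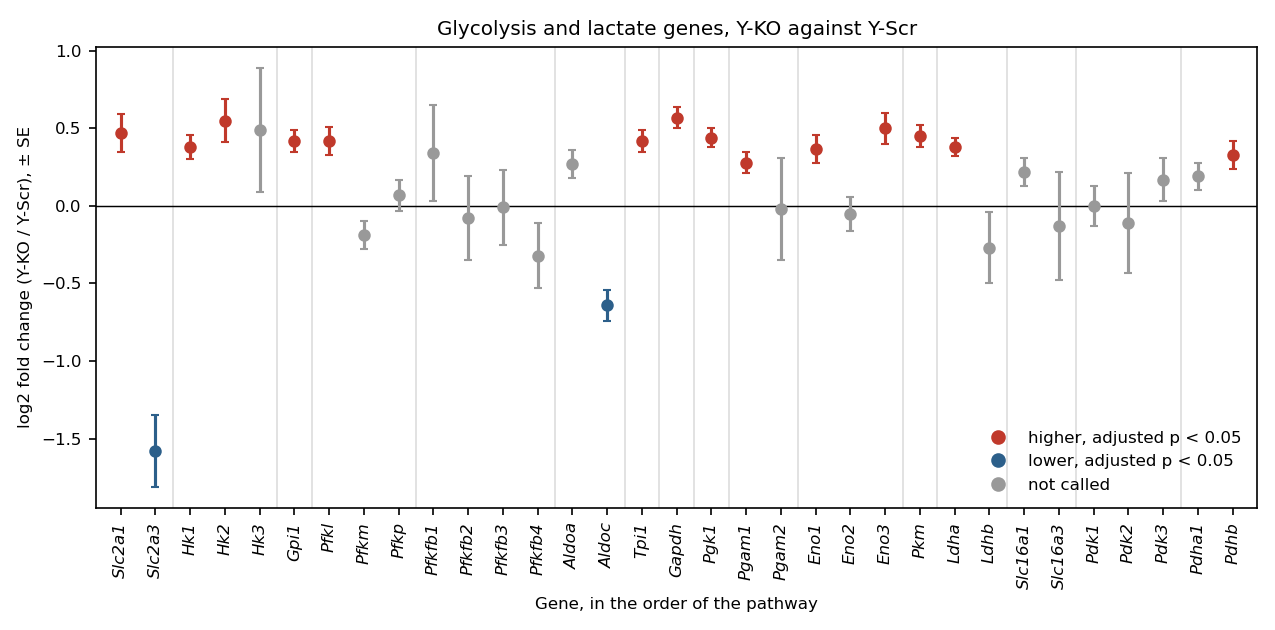
Log2 fold change of Y-KO over Y-Scr for the 33 tested genes in pathway order, with bars of 1 standard error from edgeR (3 libraries a group) and colours for the call at an adjusted p below 0.05. The 14 higher genes lie in a narrow band between 0.28 and 0.57, and Slc2a3 at -1.58 is the one called gene whose groups differed by more than 2-fold.

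Promoters of these genes are shown because hypoxia-inducible factors and Myc can both bind DNA at ACGTG, which Myc reads within the longer CACGTG. Only this core was counted, and GCGTG, which hypoxia-inducible factors can also bind, was not searched for. The windows are the 250 bases before each annotated start in RefSeq for GRCm38.p6, an earlier build than the GRCm39 of the counts, and 33 of the 34 members had at least 1 window, 52 in all. ACGTG on either strand was found in 20 of these 52 windows (38.5%), against 16.6% of all 32851 windows of that length; 6.02% of all windows held CACGTG, every one of which is also counted as ACGTG. Among the higher genes, Slc2a1, Hk2, Pgk1, Pgam1, Pkm, Ldha and Pdhb held the core in at least 1 window, that is 7 of 14, and among the genes without a call it was 9 of 17. Aldoc, the 1 lower gene with a window, held no ACGTG on either strand. Windows of 1 gene can overlap, as for Aldoa, so 1 site can be counted in more than 1 window. A match of these letters is a description and not a bound site. Below are the windows of Slc2a1 (chr4:119108495-119108744), Pgk1 (chrX:106186850-106187099), the first of the starts of Ldha (chr7:46845554-46845803) and the first of the starts of Aldoc (chr11:78322823-78323072), all on the plus strand, 5′ to 3′, with ACGTG or its reverse complement CACGT in capitals.
Slc2a1: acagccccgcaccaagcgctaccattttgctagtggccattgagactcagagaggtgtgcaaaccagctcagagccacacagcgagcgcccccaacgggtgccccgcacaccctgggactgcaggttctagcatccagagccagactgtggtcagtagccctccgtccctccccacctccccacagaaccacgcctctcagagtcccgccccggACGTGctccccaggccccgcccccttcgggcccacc
Pgk1: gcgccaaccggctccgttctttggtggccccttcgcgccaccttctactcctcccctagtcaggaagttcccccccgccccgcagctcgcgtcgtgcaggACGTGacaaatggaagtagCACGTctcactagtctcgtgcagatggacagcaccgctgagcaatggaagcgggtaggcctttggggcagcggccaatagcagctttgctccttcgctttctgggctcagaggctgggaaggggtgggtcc
Ldha: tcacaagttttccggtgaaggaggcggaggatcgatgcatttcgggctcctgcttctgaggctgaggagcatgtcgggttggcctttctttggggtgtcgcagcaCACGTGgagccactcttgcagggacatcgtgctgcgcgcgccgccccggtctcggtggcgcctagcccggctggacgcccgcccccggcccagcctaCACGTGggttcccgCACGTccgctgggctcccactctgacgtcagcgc
Aldoc: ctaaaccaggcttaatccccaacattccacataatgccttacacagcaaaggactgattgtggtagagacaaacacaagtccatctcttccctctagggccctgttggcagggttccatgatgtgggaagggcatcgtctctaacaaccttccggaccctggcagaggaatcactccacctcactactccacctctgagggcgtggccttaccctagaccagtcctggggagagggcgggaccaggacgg
The Slc2a1 window held the core once near its 3′ end, the Pgk1 window held it once on each strand, and the Ldha window held CACGTG at separate places with a further core on the opposite strand beside the second.

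At the first step, the pair of glucose transporters went in opposite directions. Slc2a1 encodes GLUT1, the widespread transporter of proliferating cells (chr4:118965908-118995180, GRCm39, as are all gene coordinates below). It was at 405, 437 and 308 CPM in Y-KO replicates 1 to 3 and at 280.0, 269 and 283 CPM in Y-Scr replicates 1 to 3. Every Y-KO library lay above every Y-Scr library, with Y-KO replicate 3 the nearest, and Slc2a1 was 1.38-fold higher (log2 0.47, SE 0.12, edgeR adjusted p = 0.0365). That call was lost when any 1 library other than Y-KO replicate 3 was left out, with edgeR adjusted p from 0.0858 to 0.129.

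Slc2a3 encodes GLUT3, a high-affinity transporter prominent in neurons and white blood cells (chr6:122704768-122778599). It was at 20.2, 25.9 and 12.6 CPM in Y-KO and at 54.6, 58.2 and 62.7 CPM in Y-Scr. The groups were far apart, and Slc2a3 was 2.99-fold lower in Y-KO (log2 -1.58, SE 0.23, edgeR adjusted p = 0.00289). The fits that left out single libraries kept the log2 fold change between -1.84 and -1.35 and the adjusted p at or below 0.0222. Leukocyte marker lists did not all move one way. The 13 pan-leukocyte markers summed to 1699 to 3574 CPM in Y-KO and 4152 to 4312 CPM in Y-Scr, with 4 lower and 0 higher in edgeR's test, and the 8 neutrophil markers to 198 to 618 CPM and 1236 to 1428 CPM, with 5 of 7 tested lower. The 12 macrophage and monocyte markers summed to 1194 to 2386 CPM in Y-KO and 1230.0 to 1358 CPM in Y-Scr, with 6 higher and 1 lower. Their part in the Slc2a3 result was not tested.

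Both widely expressed hexokinases rose in Y-KO. Hexokinase traps glucose in the cell as glucose 6-phosphate. Hk1, the form found in most tissues and bound to mitochondria (chr10:62104634-62215687), was at 314, 317 and 344 CPM in Y-KO and 260.4, 249 and 238 CPM in Y-Scr. The groups did not overlap, and Hk1 was 1.30-fold higher (log2 0.38, SE 0.08, edgeR adjusted p = 0.0135). Without Y-Scr replicate 2 or 3 its edgeR adjusted p was 0.0799 to 0.0845.

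Hk2, the inducible form of muscle, fat and many tumours (chr6:82702006-82751435), was at 106, 96.6 and 72.6 CPM in Y-KO and 58.2, 60.5 and 68.8 CPM in Y-Scr. Y-KO replicate 3 was only just above the highest Y-Scr library. The fit gave 1.47-fold (log2 0.55, SE 0.14, edgeR adjusted p = 0.0332), and the call was lost when any 1 library but Y-KO replicate 3 was left out (edgeR adjusted p from 0.0734 to 0.122).

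Hk3, the hexokinase of myeloid cells (chr13:55153798-55169198), was at 77.99, 80.6 and 21.8 CPM in Y-KO and 45.9, 40.7 and 41.8 CPM in Y-Scr. The Y-KO libraries lay on both sides of the Y-Scr range, and Hk3 was not called (log2 0.49, SE 0.40, edgeR adjusted p = 0.458). With Y-KO replicate 3 left out its log2 fold change was 0.89 with an edgeR adjusted p of 1.1e-06. Macrophage and monocyte markers were also lower in replicate 3 than in the other Y-KO libraries: 12 of them summed to 2386, 2378 and 1194 CPM in Y-KO and 1358, 1261 and 1230 CPM in Y-Scr. Whether Hk3 followed the number of such cells was not tested.

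Gpi1, the isomerase that turns glucose 6-phosphate into fructose 6-phosphate (chr7:33900755-33929761), was at 1222, 1237 and 1305 CPM in Y-KO and 984, 904 and 920.2 CPM in Y-Scr. The groups were well separated, at 1.34-fold (log2 0.42, SE 0.07, edgeR adjusted p = 0.00408), and the call held without each library in turn.

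Phosphofructokinase makes fructose 1,6-bisphosphate, the committed step, and is a tetramer of liver, muscle and platelet subunits. The 3 subunit genes did not move together. Pfkl, the liver type (chr10:77822781-77845917), was at 242, 269 and 289 CPM in Y-KO and 209, 189 and 199 CPM in Y-Scr, with no overlap. It was 1.34-fold higher (log2 0.42, SE 0.09, edgeR adjusted p = 0.0162); when Y-KO replicate 2 or Y-Scr replicate 2 or 3 was left out, the edgeR adjusted p was 0.0555 to 0.0980.

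Pfkm, the muscle type (chr15:97990470-98030332), was at 99.1, 102 and 113 CPM in Y-KO and 126, 120.2 and 112.3 CPM in Y-Scr. Y-KO replicate 3 and Y-Scr replicate 3 were nearly equal, and Pfkm was not called (log2 -0.19, SE 0.09, edgeR adjusted p = 0.183). With Y-KO replicate 3 left out it was lower, with a log2 fold change of -0.25 and an edgeR adjusted p of 0.0157. Pfkm lies on chromosome 15, where, with all libraries, 12.05% of all tested genes were lower and the median log2 fold change was -0.14. Pfkp, the platelet type (chr13:6629804-6698813), was at 302, 295 and 239 CPM in Y-KO and 266, 266 and 263 CPM in Y-Scr, so that its Y-KO libraries lay on both sides of a tight Y-Scr group (log2 0.07, SE 0.10, edgeR adjusted p = 0.687). With Y-KO replicate 3 left out, Pfkp too was called, as higher (log2 0.17, edgeR adjusted p = 0.0334).

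None of the 4 genes for 6-phosphofructo-2-kinase/fructose-2,6-bisphosphatase was called. These enzymes set the level of fructose 2,6-bisphosphate, the strongest activator of phosphofructokinase. Pfkfb3, the form with the highest kinase activity, was at 77.5, 73.5 and 38.1 CPM in Y-KO and 58.3, 62.3 and 70.1 CPM in Y-Scr. The Y-KO libraries again lay on both sides of the Y-Scr range (log2 -0.01, SE 0.24, edgeR adjusted p = 0.978), and without Y-KO replicate 3 Pfkfb3 was called as higher, at log2 0.25 with an edgeR adjusted p of 0.0450. Pfkfb4 was at 30.6, 28.0 and 17.0 CPM in Y-KO and 33.1, 26.9 and 34.3 CPM in Y-Scr, with overlap (log2 -0.32, SE 0.21). Pfkfb1 and Pfkfb2, the liver and heart forms, were low, at 2.05 to 3.82 CPM and 4.13 to 7.53 CPM over the 6 libraries, and their groups overlapped.

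Aldolase splits fructose 1,6-bisphosphate into 3-carbon units. Aldoa, the main form of muscle and most dividing cells (chr7:126394406-126399923), was at 1851, 1915 and 2188 CPM in Y-KO and 1807, 1587 and 1542 CPM in Y-Scr. The groups did not overlap, with Y-KO replicate 1 just above Y-Scr replicate 1, but the test missed the threshold (log2 0.27, SE 0.09, edgeR adjusted p = 0.0712); with Y-KO replicate 3 left out it was called, at log2 0.19 with an edgeR adjusted p of 0.0216, as it was without Y-Scr replicate 1 (log2 0.37, edgeR adjusted p = 0.0478) and with every gene with a count tested (log2 0.26, edgeR adjusted p = 0.0427). Over all alternatives its adjusted p ran from 0.0216 to 0.361. A second identifier with the same symbol, on the neighbouring interval chr7:126399962-126408280, had 734 counts over all libraries against 523385 for the first and was not called (log2 0.86, SE 0.36, edgeR adjusted p = 0.150).

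Aldoc, the aldolase of brain (chr11:78213794-78218607), fell in Y-KO. It was at 23.0, 25.1 and 25.03 CPM in Y-KO and 37.1, 39.6 and 37.2 CPM in Y-Scr, with tight groups that did not overlap (log2 -0.64, SE 0.10, edgeR adjusted p = 0.00380).

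From triose phosphates to pyruvate, every step had at least 1 gene that rose. Triosephosphate isomerase, Tpi1 (chr6:124787549-124791259), which makes both aldolase products usable, was at 1024, 990.4 and 1040 CPM in Y-KO and 819, 730 and 732 CPM in Y-Scr. The groups were well apart, at 1.34-fold (log2 0.42, SE 0.07, edgeR adjusted p = 0.00601), although without Y-Scr replicate 2 or 3 the edgeR adjusted p was 0.0505 to 0.0517. Gapdh, the dehydrogenase that makes the NADH later used by lactate dehydrogenase (chr6:125138678-125143430), was at 4334, 4392 and 4326 CPM in Y-KO and 3201, 2792 and 2816 CPM in Y-Scr. The lowest Y-KO library exceeded the highest Y-Scr library by a wide margin, and the 1.48-fold difference (log2 0.57, SE 0.07, edgeR adjusted p = 0.00103) had the highest log2 value of the 14 higher members. Gapdh is often used as a reference gene in these assays.

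Pgk1, the X-linked kinase that forms the first ATP of the route (chrX:105230706-105247305), was at 1779, 1834 and 1807 CPM in Y-KO and 1398, 1291 and 1293 CPM in Y-Scr. Both groups were tight and separate, at 1.36-fold (log2 0.44, SE 0.06, edgeR adjusted p = 0.00230). Its promoter window, shown above, holds the ACGTG core on both strands.

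Phosphoglycerate mutase moves the phosphate within 3-phosphoglycerate. Pgam1, the general form (chr19:41900362-41907099), was at 364, 398 and 374 CPM in Y-KO and 317, 311 and 308 CPM in Y-Scr. The groups did not overlap, and Pgam1 was 1.21-fold higher (log2 0.28, SE 0.07, edgeR adjusted p = 0.0317), and the call was lost without Y-KO replicate 1 or 2 or Y-Scr replicate 2 or 3 (with edgeR an adjusted p from 0.0691 to 0.131). Pgam1 lies on chromosome 19, where 19.2% of all tested genes were higher and the median log2 fold change was 0.15. Pgam2, the muscle form, was at 1.41 to 2.80 CPM in all libraries, with overlap.

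Enolase dehydrates 2-phosphoglycerate to phosphoenolpyruvate. Eno1, the general form (chr4:150321178-150333336), was at 2012, 2108 and 1687 CPM in Y-KO and 1597, 1439 and 1449 CPM in Y-Scr, without overlap. It was 1.29-fold higher (log2 0.37, SE 0.09, edgeR adjusted p = 0.0273), but when Y-KO replicate 1 or 2 or Y-Scr replicate 2 or 3 was left out, the edgeR adjusted p was 0.0960 to 0.116. Eno3, the muscle form (chr11:70548028-70553339), was at 283, 291 and 324 CPM in Y-KO and 232, 211 and 192 CPM in Y-Scr. Its groups were apart by more than their spread, at 1.42-fold (log2 0.50, SE 0.10, edgeR adjusted p = 0.0102), and without Y-Scr replicate 2 or 3 the edgeR adjusted p was 0.0646 to 0.0651.

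Skeletal muscle markers were low in these libraries, and 12 of them together summed to 7.69 to 11.3 CPM. Ckm and Acta1 were at most 0.183 and 0.474 CPM, while Tnni2, Ttn and Mylpf reached 5.86, 3.59 and 3.45 CPM. Of the 5 tested, 0 were higher in Y-KO and 1, Ttn, was lower. The part of muscle cells in the Eno3 result was not tested. Eno2, the neuronal enolase, was at 20.7 to 22.6 CPM in Y-KO and 20.7 to 24.3 CPM in Y-Scr, with overlapping groups (log2 -0.05, SE 0.11).

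Pkm, pyruvate kinase, which yields the second ATP (chr9:59563651-59586658), was at 3965, 4005 and 3571 CPM in Y-KO and 3036, 2697 and 2692 CPM in Y-Scr. The groups were separate, at 1.37-fold (log2 0.45, SE 0.07, edgeR adjusted p = 0.00450), and the call held without each library in turn. A gene on the same strand, Gm49759, overlaps 15.3% of the Pkm exon bases, and reads there were not assigned to either; Gm49759 itself was at log2 -0.32 (SE 0.12, edgeR adjusted p = 0.103).

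Per kb of exon length, the same 5 genes led in both groups. Gapdh was highest, at a mean of 1053 CPM per kb in Y-KO and 711 in Y-Scr, followed by Ldha at 880.0 and 677, Pgk1 at 805 and 591, Pkm at 769 and 562, and Aldoa at 682 and 565. Pkm and Aldoa were neighbours whose order differed between the groups, and their libraries overlapped in both. So did the libraries of Pgk1 and Pkm, and in Y-Scr also those of Gapdh and Ldha, so the order of these neighbours is not settled. Tpi1 followed at 370 and 276 and Eno1 at 360 and 278 CPM per kb, neighbours whose libraries overlapped as well. The transporters were lower: Slc2a1 was at 109 and 79.1 and Slc16a1 at 62.8 and 53.8 CPM per kb. The least abundant tested genes were Pfkfb1, at 0.78 and 0.62 CPM per kb, and Pfkfb2, at 0.75 and 0.79.

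**Figure D2:**
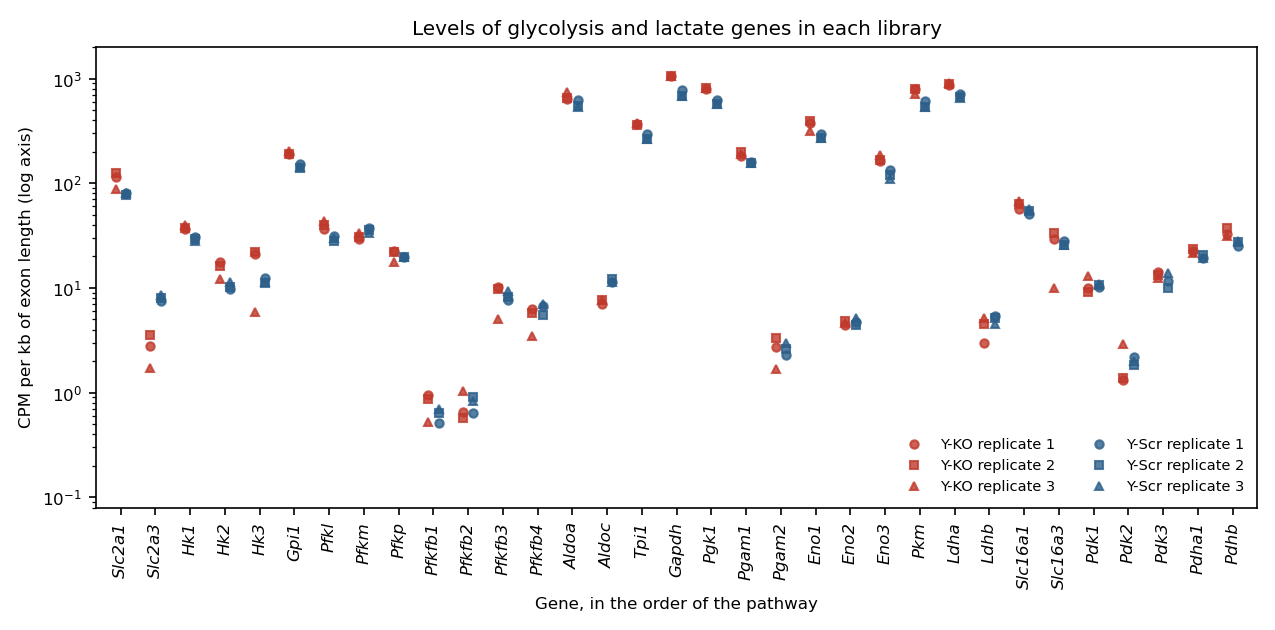
Level of each gene in CPM per kb of exon length (log axis), in pathway order; 1 point is 1 library, red for Y-KO and blue for Y-Scr, with the shape giving the replicate. Levels run from under 1 CPM per kb for Pfkfb1 to 1053 for the Y-KO mean of Gapdh, and the red triangles of Hk3, Slc16a3 and Pfkfb3 (Y-KO replicate 3) lie below the other Y-KO points.

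At the lactate step, Ldha rose and Ldhb was not called. Ldha encodes the subunit that favours lactate formation (chr7:46490899-46505051). It was at 2846, 2919 and 2974 CPM in Y-KO and 2350, 2204 and 2173 CPM in Y-Scr. The groups were tight and separate, at 1.30-fold (log2 0.38, SE 0.06, edgeR adjusted p = 0.00357), and the call held without each library in turn. Ldhb, the subunit of heart and other oxidative tissue (chr6:142435975-142453683), was at 4.64, 7.04 and 8.08 CPM in Y-KO and 8.53, 8.18 and 7.14 CPM in Y-Scr. Y-KO replicate 3 lay inside the Y-Scr range (log2 -0.27, SE 0.23, edgeR adjusted p = 0.475).

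Neither lactate transporter was called. Slc16a1 encodes MCT1, which carries lactate in either direction (chr3:104545984-104565778), and was at 252, 281 and 301 CPM in Y-KO and 224, 241 and 249 CPM in Y-Scr. Its groups did not overlap, but Y-KO replicate 1 was only just above Y-Scr replicate 3, and the test gave log2 0.22 (SE 0.09, edgeR adjusted p = 0.133). Slc16a3 encodes MCT4, the exporter of highly glycolytic cells (chr11:120839306-120851694), and was at 158, 177 and 53.5 CPM in Y-KO and 150, 136 and 136 CPM in Y-Scr. Y-KO replicates 1 and 2 lay above the Y-Scr libraries and replicate 3 far below them (log2 -0.13, SE 0.35, edgeR adjusted p = 0.853). With Y-KO replicate 3 left out, Slc16a3 was called as higher, at log2 0.24 with an edgeR adjusted p of 0.0189.

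Pyruvate dehydrogenase turns pyruvate into acetyl-CoA in mitochondria, and its kinases switch it off. Of the kinases, Pdk1 was at 77.0, 70.7 and 101 CPM in Y-KO and 80.0, 82.3 and 85.7 CPM in Y-Scr, so the Y-KO libraries enclosed the Y-Scr range (log2 0.00, SE 0.13, edgeR adjusted p = 0.996). Pdk2 was at 4.15, 4.33 and 9.26 CPM in Y-KO and 6.92, 5.88 and 6.31 CPM in Y-Scr; without Y-KO replicate 3 it was lower, at log2 -0.59 with an edgeR adjusted p of 0.0389, against -0.11 and 0.855 with all libraries. Pdk3, an X-linked kinase, was at 31.6 to 36.5 CPM in Y-KO and 25.4 to 35.3 CPM in Y-Scr, with overlap. Pdk4, the form induced by fasting, had 0 counts in all 6 libraries, where 3 counts over a group would be at most 0.0219 CPM.

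Of the enzyme subunits, Pdhb, the E1 beta subunit (chr14:14296748-14303777), was at 126, 143 and 121 CPM in Y-KO and 97.5, 106 and 108 CPM in Y-Scr. The groups did not overlap, and Pdhb was 1.25-fold higher (log2 0.33, SE 0.09, edgeR adjusted p = 0.0483), a call lost when any 1 library but Y-KO replicate 3 was left out (edgeR adjusted p from 0.0995 to 0.157) and also where genes needed a mean of 4 CPM. Pdha1, the X-linked E1 alpha subunit, was at 84.8, 87.3 and 79.8 CPM in Y-KO and 71.4, 77.8 and 71.4 CPM in Y-Scr. Its groups did not overlap either, yet it was not called (log2 0.19, SE 0.09, edgeR adjusted p = 0.167) unless Y-KO replicate 3 was left out (log2 0.23, edgeR adjusted p = 0.0352).

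Within a family, the share of each isoform was taken as its counts per kb over the family's sum in the same library. In 6 of 10 families at least 1 share did not overlap between the groups, 11 of 26 shares in all (42.3%). In a family of 2 genes the shares mirror each other; with each such family counted once it was 8 of 21 (38.1%), near the 37.7% of all genes whose CPM did not overlap, so the count by itself does not set these families apart. With 3 libraries against 3, an exact two-sided permutation test cannot give a p below 0.1, so none could pass; that was the p for each of the 11, or 0.236 after Benjamini-Hochberg adjustment over the 26. Slc2a1 made up 97.6% ± 0.43 (SD, n = 3) of the transporter pair in Y-KO and 90.7% ± 0.56 in Y-Scr. Slc2a3, the other part of that pair, thus went from 9.26% of it in Y-Scr to 2.36% in Y-KO.

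Among the phosphofructokinases, the liver type Pfkl took 43.4% ± 2.3 in Y-KO and 34.9% ± 1.2 in Y-Scr, and the muscle type Pfkm 33.99% ± 1.4 and 41.9% ± 1.3. Per kb, Pfkl was thus the leading subunit transcript in each Y-KO library and Pfkm in each Y-Scr library. This order rests on the length scaling, with exon lengths of 6675, 3340 and 13401 bases for Pfkl, Pfkm and Pfkp. By CPM, Pfkp led in Y-KO replicates 1 and 2 and in each Y-Scr library, Pfkl led in Y-KO replicate 3, and Pfkm was lowest in every library. The share of Pfkp overlapped between the groups. Shares of the minor isoforms Aldoc (1.09% in Y-KO, 2.03% in Y-Scr), Eno2 (0.863% and 1.19%) and Ldhb (0.473% and 0.741%) were lower in each Y-KO library than in any Y-Scr library. So was Pfkfb4, at 34.4% and 39.6%, whereas Pfkfb1 had a higher share, at 5.18% and 3.79%.

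Elsewhere Y-KO replicate 3 set the spread. Slc16a1 took 65.8%, 65.7% and 87.1% of the lactate transporter pair in Y-KO and 64.3%, 68.0% and 68.7% in Y-Scr. Hk1 took 48.6%, 49.4% and 69.0% of the hexokinases in Y-KO and 57.9%, 58.0% and 54.9% in Y-Scr, while Hk3 took 28.0%, 29.1% and 10.1% and then 23.7%, 21.9% and 22.4%. For each of these shares Y-KO replicates 1 and 2 lay close together and replicate 3 lay outside the range of the other 5 libraries. The Hk2 share did not do so, with Y-KO replicate 3 at 20.85%, inside that range.

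**Figure D3:**
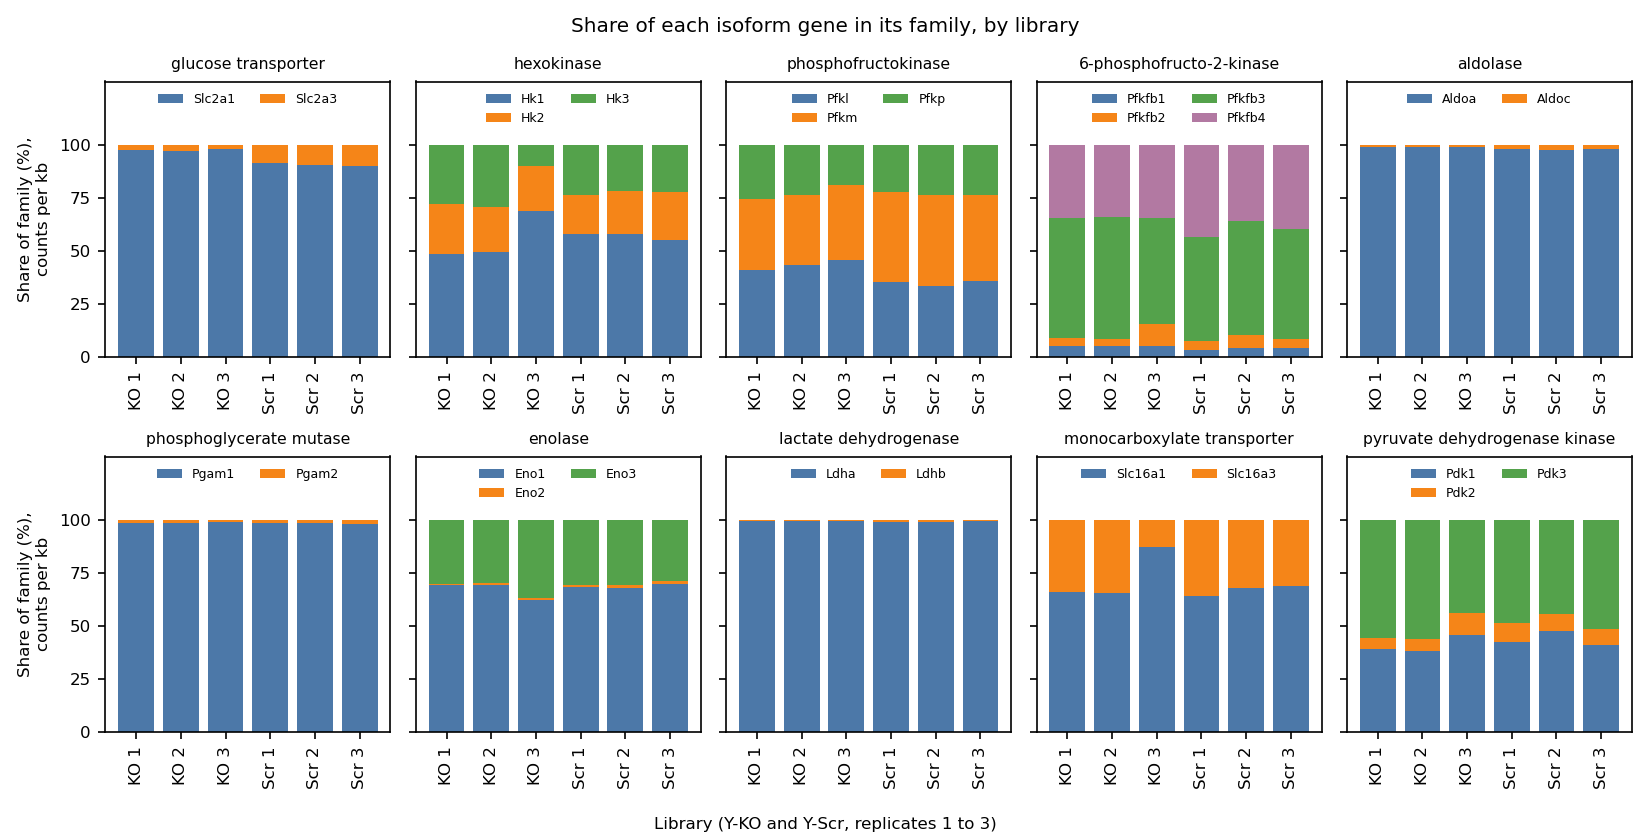
Share of each isoform gene in its family (percent of counts per kb) in the 3 Y-KO and 3 Y-Scr libraries; each stacked bar is 1 library and sums to 100%. The Slc2a3 and Pfkm shares are smaller and the Pfkl share larger in each Y-KO library than in any Y-Scr library. Y-KO replicate 3 differs from the other libraries in the shares of Hk1, Hk3 and the lactate transporters.

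Y-KO replicate 3 held less of several members than its group. Its CPM divided by the mean of Y-KO replicates 1 and 2 was 0.274 for Hk3, 0.320 for Slc16a3, 0.504 for Pfkfb3, 0.544 for Slc2a3 and 0.581 for Pfkfb4, and 2.18 for Pdk2. For Gapdh, Pgk1, Tpi1, Ldha and Gpi1 it was between 0.992 and 1.06. Over the 33 tested members, 16 were lowest in replicate 3 among the Y-KO libraries. No such count over all tested genes stands beside it, so it does not set the members apart. Marker sums differed in replicate 3 too, in both directions. Pan-leukocyte markers were lower there, at 3510, 3574 and 1699 CPM in Y-KO replicates 1 to 3. Fibroblast markers were higher there, at 698, 726 and 1337 CPM against 1578 to 1699 CPM in Y-Scr. Within the fibroblast list, Dcn was at 54.1, 57.5 and 423 CPM in Y-KO and Thy1 at 48.6, 54.5 and 35.1 CPM. The part of the marked cells in the members' values was not tested.

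**Figure D4:**
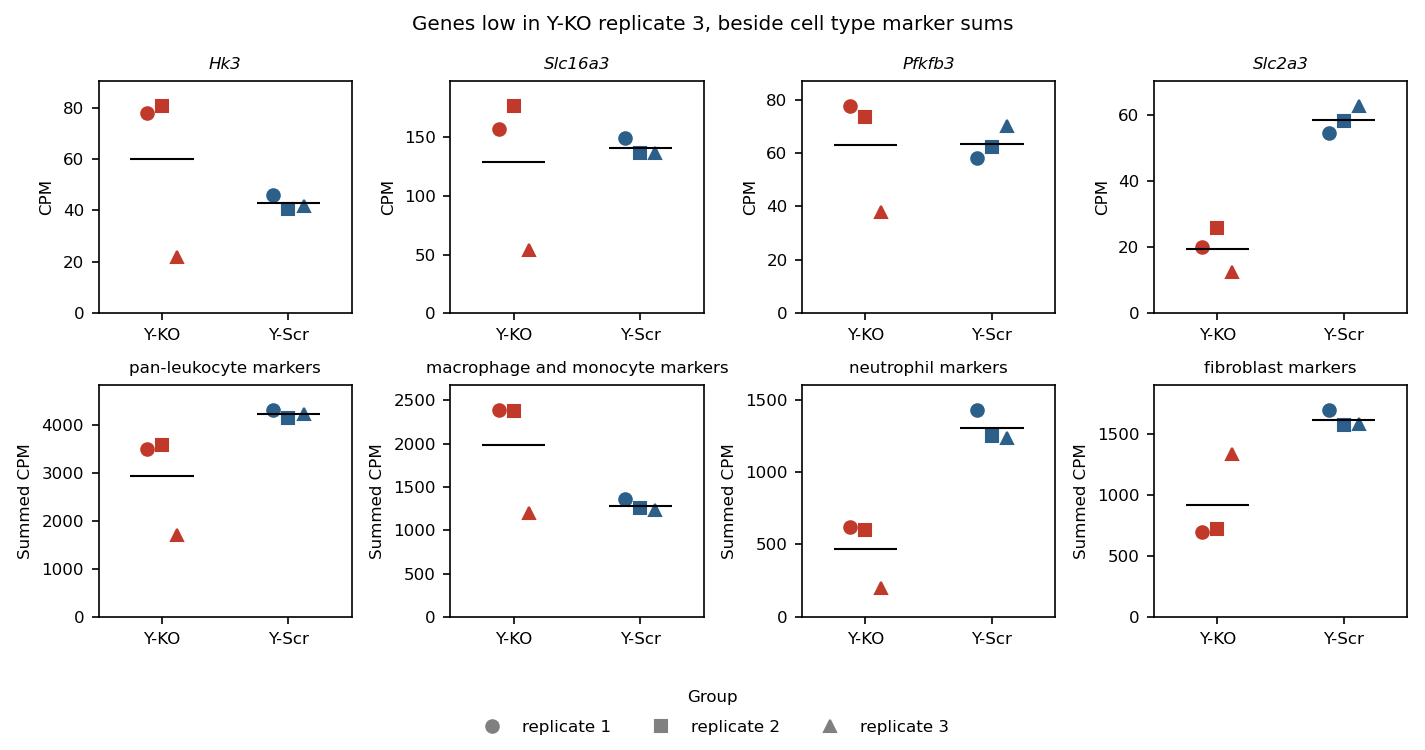
Top row, CPM of Hk3, Slc16a3, Pfkfb3 and Slc2a3; bottom row, summed CPM of pan-leukocyte, macrophage and monocyte, neutrophil and fibroblast markers; 1 point is 1 library and the line is the group mean. Y-KO replicate 3 (red triangle) is the lowest library in each panel except the one for fibroblast markers, where it lies between the other Y-KO libraries and the Y-Scr libraries.

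The summed level of epithelial transcripts, which mark the carcinoma cells, was also higher in Y-KO, although single markers went both ways. Of 10 epithelial markers 8 were tested, 4 were higher and 1 was lower, and the sum was 3275, 3319 and 3466 CPM in Y-KO and 2734, 2437 and 2406 CPM in Y-Scr. Krt8 and Krt18, the keratin pair of simple epithelia, made up most of it and were at log2 0.41 (SE 0.08, edgeR adjusted p = 0.0106) and 0.43 (SE 0.07, edgeR adjusted p = 0.00541). Those sizes lie inside the range of the higher glycolysis genes. Leaving out Y-Scr replicate 2 or 3 lost the Krt8 call, whereas Krt18 stayed called. Krt14 (log2 1.83, edgeR adjusted p = 0.000329) and Krt19 (log2 2.82, edgeR adjusted p = 0.00276) were higher as well, and Epcam was lower (log2 -1.81, edgeR adjusted p = 0.00586). The other tested markers were not called: Cdh1 was at log2 -0.67 (edgeR adjusted p = 0.142). Krt5 was at log2 -2.25 (edgeR adjusted p = 0.0626) and Krt7 at 0.74 (edgeR adjusted p = 0.744), both at 1.14 CPM or less in every library. Whether the higher members followed the share of tumour cells in the sort was not tested.

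Red blood cells lack mitochondria and live on glycolysis, and erythroid markers were lower in Y-KO, with 8 of them summing to 0.930 to 1.22 CPM against 230.3 to 273 CPM. T and NK cell markers were lower too: 10 of 11 fell, and their sums were 123 to 203 CPM in Y-KO and 502 to 547 CPM in Y-Scr. Adipocyte markers summed to 11.6 to 14.4 CPM, with Plin1, Cidec, Lep and Pck1 at 0. The part of these cells in the members' values was not tested.

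By position, 7 members lie on chromosome 6, of which 6 were tested, 3 were higher (Hk2, Tpi1 and Gapdh) and Slc2a3 was lower. Over all 968 tested genes of chromosome 6, 5.37% were higher and 14.9% lower in edgeR's test, and the median log2 fold change was -0.10, beside 0.19 for the members there. The X chromosome holds Pfkfb1, Pgk1, Pdk3 and Pdha1, of which only Pgk1 was called; the median over all tested X genes was -0.08. Overlapping genes take up 19.5% of the exon bases of Pfkfb2 (Yod1 and Gm29427), 16.1% of those of Pdha1 (Map3k15) and 10.7% of those of Pfkm (Senp1 and Gm26513). Reads in those stretches were left out of both genes, and reads that also match processed pseudogenes of Gapdh, Eno1, Ldha, Pgk1, Tpi1, Pgam1 or Aldoa were dropped, so levels of these members are uncertain.

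Neighbouring pathways were followed through 11 lists. Of 122 further genes of these lists in the table, 101 were tested, 17 were higher, 8 were lower and 76 were not called, with a median log2 fold change of 0.16; over all genes 7.82% were higher and 8.27% lower. Of these 25 calls, only Ero1l, Got1, Mxi1, Pck2 and Pgm1 held without each library in turn, and 5 to 58 genes were called when single libraries were left out, the highest count without Y-KO replicate 3 and the lowest without Y-Scr replicate 2. The 3 genes of each list with the smallest p are named where they were called.

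At glucose entry, 5 other transporters were tested, none was higher and 2 were lower. Slc2a6, which encodes GLUT6, was at 6.48, 12.04 and 3.22 CPM in Y-KO and 19.1, 19.0 and 16.8 CPM in Y-Scr (log2 -1.33, SE 0.39, edgeR adjusted p = 0.04996, just under the threshold). The groups did not overlap, and the call was lost without Y-KO replicate 1 or any 1 Y-Scr library (edgeR adjusted p from 0.134 to 0.149). Slc2a10 had 0 counts in all of Y-KO and 62 in all of Y-Scr. With 3 counts for the whole group as the floor it was 18.5-fold lower (edgeR adjusted p = 0.0181). Where mates are counted one by one, 3 counts stand for fewer fragments, so this fold is not a strict lower bound. The Slc2a10 call was lost without any 1 Y-Scr library (edgeR adjusted p from 0.0719 to 0.102). Among paralogues outside the members, Bpgm, which makes 2,3-bisphosphoglycerate in red cells, was lower (log2 -0.65, SE 0.19, edgeR adjusted p = 0.0473), and 4 of 5 tested were not called; without any 1 library but Y-KO replicate 3 its edgeR adjusted p was 0.0705 to 0.179. The erythroid marker sums given above moved the same way, and their part in it was not tested.

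Among 7 other tested genes of monocarboxylate transport, which include Bsg and Emb beside Slc16a genes, Slc16a13 was higher (log2 0.58, SE 0.14, edgeR adjusted p = 0.0292). Slc16a6 was lower (log2 -0.76, SE 0.16, edgeR adjusted p = 0.0155). The first call was lost without any 1 library but Y-KO replicate 3 (edgeR adjusted p from 0.0653 to 0.110) and the other without any 1 Y-Scr library (0.0600 to 0.0787). Of 9 further genes of pyruvate entry and its dehydrogenase complex, 7 were not called and 2 were lower: Pcx, pyruvate carboxylase, at log2 -0.87 (SE 0.24, edgeR adjusted p = 0.0424), and Pdpr, a regulator of the dehydrogenase phosphatase, at log2 -0.73 (SE 0.19, edgeR adjusted p = 0.0327). Both calls were lost without any 1 library but Y-KO replicate 3 (edgeR adjusted p from 0.0551 to 0.167).

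In gluconeogenesis, 2 of 3 tested genes were higher. Pck2, the mitochondrial PEP carboxykinase, was at 174, 184 and 200 CPM in Y-KO and 119, 110 and 109 CPM in Y-Scr (log2 0.72, SE 0.09, edgeR adjusted p = 0.00127). Fbp2, a fructose bisphosphatase, was at log2 0.63 (SE 0.14, edgeR adjusted p = 0.0184), and it lost the call without Y-KO replicate 1 or 2 or Y-Scr replicate 2 or 3 (0.0567 to 0.0976). In glycogen metabolism, Pgm1, which links glucose 6-phosphate to glycogen, rose (log2 0.66, SE 0.09, edgeR adjusted p = 0.00205), as did the synthase Gys1 (log2 0.61, SE 0.11, edgeR adjusted p = 0.00938), and the phosphorylase Pygb fell (log2 -0.41, SE 0.09, edgeR adjusted p = 0.0189); 6 of 9 were not called. Gys1 lost its call without Y-Scr replicate 2 (edgeR adjusted p = 0.0631) and Pygb without Y-KO replicate 1 or any 1 Y-Scr library (0.0645 to 0.117). In the pentose phosphate pathway 8 of 9 were not called and Rpia was lower (log2 -0.53, SE 0.12, edgeR adjusted p = 0.0198), and the call was lost without Y-KO replicate 2 or any 1 Y-Scr library (0.0548 to 0.114).

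The shuttles that carry NADH electrons into mitochondria had 3 of 10 genes higher and 0 lower. Got1, the cytosolic aspartate aminotransferase, was at 169, 158 and 135 CPM in Y-KO and 95.3, 87.4 and 88.9 CPM in Y-Scr (log2 0.76, SE 0.10, edgeR adjusted p = 0.00214). Got2 (log2 0.30) and Mdh2 (log2 0.26) were nearer the threshold, with edgeR adjusted p of 0.0497 and 0.0364, and lost the call without Y-KO replicate 1 or 2 or Y-Scr replicate 2 or 3 (0.0556 to 0.177), Got2 also without Y-Scr replicate 1. In the TCA cycle 3 of 16 were higher and 13 were not called. Cs, citrate synthase, was at log2 0.39 (edgeR adjusted p = 0.0264), and the succinyl-CoA ligase subunits Sucla2 and Suclg2 at 0.40 (edgeR adjusted p = 0.0191) and 0.36 (edgeR adjusted p = 0.0269). These calls were lost without several single libraries (edgeR adjusted p from 0.0538 to 0.132), among them Y-KO replicate 1 and Y-Scr replicates 2 and 3 for each of the 3 genes.

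Of 13 regulators of glycolysis, 12 were not called. Hif1a, chosen after its value was seen, was at 248, 242 and 176 CPM in Y-KO and 206, 246 and 245 CPM in Y-Scr (log2 -0.07, SE 0.14, edgeR adjusted p = 0.799). Myc, which was not called, was also chosen after its value was seen. It was higher in each Y-KO library, at 168, 169 and 164 CPM against 132, 147 and 138 CPM, but just missed the threshold (log2 0.27, SE 0.08, edgeR adjusted p = 0.0509). Myc was called with RLE size factors in edgeR (adjusted p = 0.0461), DESeq2 (adjusted p = 0.0218), limma-voom (adjusted p = 0.0331) and without Y-KO replicate 3 (edgeR adjusted p = 0.00518), and over all alternatives its adjusted p ran from 0.00518 to 0.329. Egln1, a prolyl hydroxylase that marks HIF for degradation, was higher (log2 0.39, SE 0.08, edgeR adjusted p = 0.0118; 0.0702 to 0.0721 without Y-Scr replicate 2 or 3).

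Of 15 hypoxia-induced genes outside glycolysis, 5 were higher, 0 were lower and 10 were not called, with a median log2 fold change of 0.29. Ero1l, an oxidase of the endoplasmic reticulum, was at 593, 585 and 481 CPM in Y-KO and 325, 366 and 380.4 CPM in Y-Scr (log2 0.63, SE 0.10, edgeR adjusted p = 0.00524). Mxi1, a Myc antagonist, was at log2 0.50 (SE 0.09, edgeR adjusted p = 0.00763), and Bnip3, a mitophagy receptor, at 0.48 (SE 0.09, edgeR adjusted p = 0.00777; 0.0545 without Y-Scr replicate 2). Adm and Vegfa, chosen here after their values were seen, were at log2 1.38 (edgeR adjusted p = 0.0102) and 0.35 (edgeR adjusted p = 0.0484). Adm lost its call without Y-Scr replicate 2 or 3 (with edgeR an adjusted p from 0.0607 to 0.0634) and Vegfa without any 1 library but Y-KO replicate 3 (0.104 to 0.156). Car9, a carbonic anhydrase also chosen after its value was seen, was at 38.4 to 49.0 CPM in Y-KO and 46.8 to 48.5 CPM in Y-Scr and was not called (log2 -0.18, SE 0.11, edgeR adjusted p = 0.341). Hypoxia itself was not measured in these tumours.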

How the data were processed

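RNA was measured in 6 libraries, 3 a group. The authors' deposited file holds raw read counts per gene, made with featureCounts 1.5.3 on Ensembl release 112 (GRCm39), per the file headers; the submitters' processing notes name FastQC 0.12.1, MultiQC 1.13, Trimmomatic 0.39 and STAR 2.5.2b. Per the file headers no strand, pair or multi-mapping option was set, so by that version's defaults strand was ignored although the kit marks it per the labels, and reads matching several places or genes were dropped. Among counts from 2 to 20, 80.3% to 82.3% were even per library, as where mates are counted one by one. Of 57186 genes 51880 have a symbol (90.7%), and 0 columns were left unused.

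Genes passing edgeR's filterByExpr (minimum count 10, minimum total 15) were tested with edgeR 4.0.16 (glmQLFit and glmQLFTest, TMM factors 0.947 to 1.06, group only, R 4.3.3) and called at an adjusted p below 0.05. CPM use the TMM factors, and lengths are the file's exon lengths. Isoform shares were tested with scipy 1.17.1. Alternatives were DESeq2 1.42.0, limma 3.58.1 (voom), other scalings and filters, a replicate block, summed close pairs and each library left out. The script was tested on simulated data. Mates and PCR copies are not independent, so floors cover counting error only. All 34 members are named, and of each list up to 3 genes with the smallest p; any other gene is said to be chosen after its values were seen. The members and lists were chosen with earlier results of these data known. Promoter windows are from RefSeq, GRCm38.p6.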

Additional observations from a re-analysis of the deposited data

How the results depend on the processing

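RLE size factors, DESeq2 and limma-voom lost and gained no member call. Testing any gene with a count also gave 14 members higher and 2 lower, but Pgam1 lost its call (adjusted p = 0.0572) and Aldoa gained one (0.0427); a mean CPM of at least 4 gave 13 and 2, without Pdhb. The replicate numbers do not pair the libraries: correlations of same-numbered deviations were -0.00835, 0.0049 and -0.0145, and 1 of 6 libraries, Y-Scr replicate 2, correlated best with its own number. The replicate block gave 10 members higher and 2 lower (Slc2a1, Hk2, Pgam1 and Pdhb lost) and 13 genes of the other lists called, against 25. The share of all genes called is not given here for the block or for these filters. Their counts therefore do not show whether the members lost more calls than other genes. Library size only gave 10 members called, 7 of them higher. With the close pairs summed, 496 genes were called over all, 1 member was called, 0 higher and 1 lower, and 0 genes of the other lists (edgeR; 10 members were higher and 26 list genes passed at an unadjusted p below 0.05, and no other tool was run on the sums). Leaving out 1 library gave 1037 to 6393 genes called over all, against 2871; 7 to 24 members, 5 to 20 higher and 2 to 4 lower; and 5 to 58 genes of the other lists. Without Y-KO replicate 3 only the close pair stays in Y-KO.

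Among fold changes that turned sign, no member is called with all libraries. With single libraries left out, log2 values ran from -0.38 (without Y-KO replicate 3) to 0.09 for Pfkfb2, where it was also 0.02 without Y-KO replicate 1 and 0.05 without Y-Scr replicate 2; from -0.19 to 0.25 for Pfkfb3 (0.08 without Y-Scr replicate 3); from -0.25 to 0.21 for Pgam2 (0.09 without Y-Scr replicate 3); from -0.09 to 0.03 for Eno2; from -0.42 to 0.24 for Slc16a3; from -0.16 to 0.10 for Pdk1; and from -0.59 to 0.09 for Pdk2 (0.07 without Y-KO replicate 2). With library size only, Pfkp was at -0.07 and Pdk1 at -0.14; with close pairs summed, Pfkfb2 was at 0.13 and Pdk2 at 0.05. Pdk1 was also at -0.01 with the block and with any count, -0.04 with the stricter filter and -0.02 with limma-voom. Share differences, in percentage points, turned for Hk1 (-1.25 with all libraries; 1.91 with pairs summed; -7.93 to 2.30 with 1 library left out, 1.88 without Y-KO replicate 2) and Hk3 (-0.246; 0.247 without length scaling; -3.59 to 5.89, with 0.254 without Y-Scr replicate 1). Others turned without Y-KO replicate 3 alone, over ranges of -1.94 to 1.39 for Pfkp, -1.42 to 2.05 for Pfkfb2, -3.14 to 0.519 for Eno1, -0.165 to 3.46 for Eno3, -1.24 to 9.47 for Slc16a1 and -9.47 to 1.24 for Slc16a3. The cause was not tested. Depth limits Pfkfb1, Pfkfb2, Pgam2, Ldhb and Pdk2 most, the tested members with the lowest counts.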
